A study of Mus musculus with 35 samples.

Results

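The meiotic recombination genes described here are Spo11, Prdm9, Dmc1, Msh4, Msh5, Hfm1, Rnf212 and Mlh3, 8 genes that were picked by name for their role in meiosis. Of the 8, 7 had a row among the 24411 gene rows of the deposited gene count tables. Rnf212 had none and was followed through the summed counts of its 4 transcripts in the transcript tables. RNA was sequenced from spermatocytes (Spc), round spermatids (RS) and chromatoid bodies (CB), the large cytoplasmic RNA and protein granules of haploid male germ cells. The mice were adults of a mixed C57Bl/6J and SV129 background. The Smg6-cKO animals were Smg6(fx/fx);Ngn3Cre+, so that exon 9 of Smg6, the gene of the endonuclease of nonsense-mediated RNA decay (NMD), is removed by a Cre driven by the Ngn3 promoter in germ cells from early postnatal life. The control (CTRL) animals carried no Cre and had either both Smg6 alleles floxed, Smg6(fx/fx), or only 1 of them, Smg6(fx/wt). There were 3 CTRL and 3 cKO libraries of Spc, 3 and 3 of RS, and 4 CTRL and 3 cKO libraries of CB, each Spc or RS library being made from cells of several testes enriched by sedimentation through an albumin gradient and the CB libraries from granules of pooled testes. The study's methods call the Spc and RS libraries biological replicates, but how animals were divided among libraries is not given in the sources used here, so the p-values measure the spread between these libraries.

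Meiotic recombination begins when SPO11 cuts both DNA strands at sites that the histone methyltransferase PRDM9 has marked. The strand-exchange protein DMC1 then carries the resected ends into the homologous chromosome. A subset of the joints is stabilised by the MSH4-MSH5 heterodimer, extended by the helicase HFM1 and selected by the RING-finger protein RNF212, and is finally resolved as crossovers by an endonuclease that contains MLH3. These steps take place in early and mid prophase of meiosis, so round spermatids have completed them, although spermatid preparations can carry RNA made before the divisions. NMD degrades mRNAs on which a stop codon lies well upstream of an exon junction, and many genes, Msh5 and Hfm1 among them, have annotated transcripts of that kind.

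The Spc and RS libraries held between 36419197 and 47355837 gene counts and the CB libraries between 2705277 and 12103906, so the counts behind the least abundant members were small in CB (14 to 63 for Dmc1 and 11 to 35 for Prdm9 per library). Levels are given as CPM (read counts relative to library size), scaled over the 12 Spc and RS libraries together and over the 7 CB libraries alone. Log2 fold changes come from an edgeR quasi-likelihood fit of each comparison with its own scaling, so they can differ somewhat from the ratio of 2 levels, and a gene passed the test at a Benjamini-Hochberg adjusted p of at most 0.05 over all genes tested. As a check of the labelled cell types, 9 round spermatid genes summed in CTRL to between 2744 and 2881 CPM in RS and between 709.5 and 1070 CPM in Spc. In the RS libraries of cKO that sum was between 984.3 and 1221 CPM, and 9 late spermatid genes (Prm1, Prm2, Tnp1 and others) summed to between 1963 and 2022 CPM against at least 29680 CPM in every CTRL RS library. Gene counts of Smg6 give no check of the genotype, because only an exon is deleted: Smg6 stood at 149 ± 34.4 CPM in CTRL Spc and 187 ± 3.96 CPM in cKO Spc (SD, n = 3 each). A lower level in these bulk samples can mean fewer cells of a type or less RNA per cell, and these cannot be told apart. The paper reports that germ cells of Smg6-cKO mice stop at the round spermatid stage and form no elongating spermatids. The RS libraries of cKO and CTRL can therefore differ in the spermatid steps they hold, which cannot be told apart here from a change within cells.

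In CTRL, the step from Spc to RS took 3 of the 7 recombination genes down and none up: Spo11, Mlh3 and Hfm1 fell, while Msh4, Msh5, Dmc1 and Prdm9 did not pass the test. Among all 17046 genes tested in that comparison, 39.7% fell and 36.2% rose. In cKO, the same 3 genes fell and Dmc1 and Prdm9 rose, beside 26.4% and 18.9% of 17709 genes. Between genotypes, Msh5 was the only member that rose in cKO Spc (14.0% of 17321 genes rose and 14.1% fell). In RS of cKO, 5 members rose (Msh5, Mlh3, Prdm9, Dmc1 and Hfm1) and Spo11 fell, beside 38.4% and 34.3% of 17492 genes. In CB of cKO, Msh5 and Prdm9 rose and Hfm1 fell, beside 18.1% and 18.4% of 14051 genes. The median log2 fold change of the 7 members between genotypes was 0.02 in Spc, 0.95 in RS and 0.17 in CB, beside medians over all genes of -0.01, 0.11 and 0.07. With library size alone the member medians were 0.04, 1.57 and 0.03, beside 0.02, 0.73 and -0.08 over all genes. With library size alone in place of TMM scaling, 5 members rose and none fell in RS of cKO (58.5% and 18.5% of all genes), none rose and 5 fell in the step from Spc to RS in CTRL (25.3% and 53.3%), and 1 rose and 1 fell in CB of cKO (11.3% and 18.3%).

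**Figure D1:**
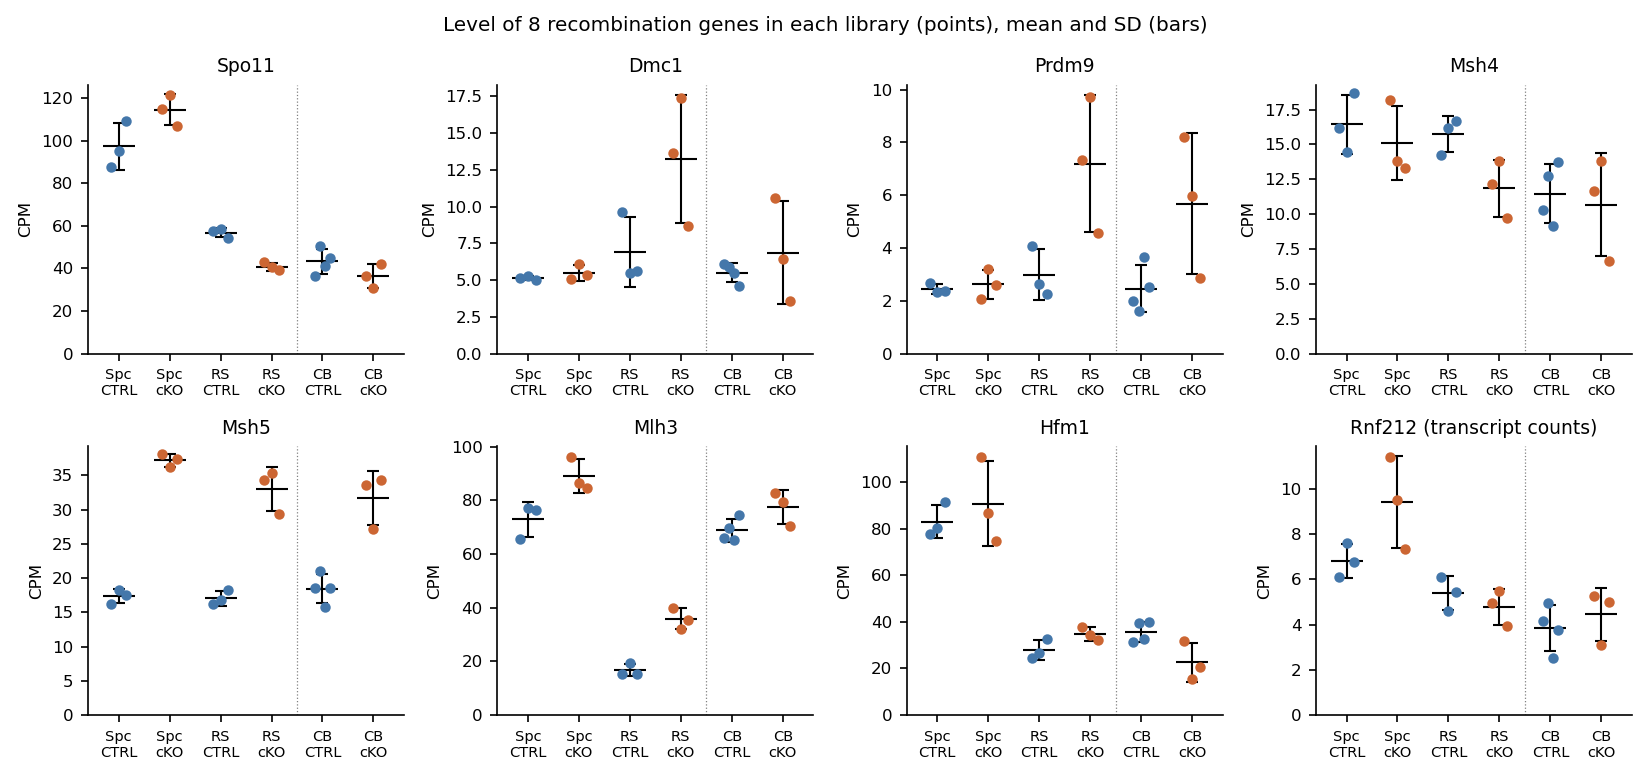
Level of each recombination gene in every library, in CPM on linear axes that start at 0, with points for libraries (blue CTRL, orange cKO) and bars for the mean and SD of each group of Spc, RS and CB. Msh5 lay between 29.3 and 38.1 CPM in the cKO libraries of Spc and RS and between 16.2 and 18.3 CPM in the CTRL libraries, whereas Msh4 overlapped between genotypes in Spc.

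Prdm9 (chr17:15543079-15564354, minus strand, GRCm38) encodes the methyltransferase that sets the places of the breaks. Its level was 2.68, 2.31 and 2.38 CPM in CTRL Spc and 2.05, 3.18 and 2.61 CPM in cKO Spc. The RS libraries of Prdm9 held 4.09, 2.64 and 2.24 CPM in CTRL and 7.34, 9.71 and 4.55 CPM in cKO. The genotypes overlapped in Spc and were apart in RS, where the lowest cKO library lay just above the highest CTRL library. Prdm9 rose in RS by 1.28 on the log2 scale (SE 0.33, adjusted p = 0.00838), and its value in Spc was -0.01 (SE 0.25, adjusted p = 0.977). From Spc to RS it rose in cKO by 1.43 (SE 0.33, adjusted p = 0.00981), while the value in CTRL was 0.15 (SE 0.26, adjusted p = 0.609). The difference between these changes was itself 1.17 on the log2 scale (SE 0.43, adjusted p = 0.0449), in a fit over 12 libraries in which 43.1% of 18171 genes passed, 24.1% of the genes as lower. With library size alone 44.5% were called higher and 3.00% lower. The call of Prdm9 was lost when the libraries of any replicate number were left out (lowest value 1.02).

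In CB, Prdm9 stood at 1.98, 1.63, 3.66 and 2.54 CPM in CTRL and 8.20, 5.99 and 2.86 CPM in cKO, so that the lowest cKO library fell within the CTRL range. It rose by 1.20 (SE 0.42, adjusted p = 0.0397) on few counts, and the call was lost when any of 5 of the 7 CB libraries was left out (log2 fold changes of 0.71 to 1.59). All 4 transcripts of Prdm9 that could be tested in RS rose, by 1.27 to 1.45, beside 38.9% of the 57133 transcripts tested over all genes.

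Spo11 (chr2:172977700-172993576, plus strand), whose product makes the breaks, went the other way. Its level was 87.6, 95.3 and 109 CPM in CTRL Spc and 115, 122 and 107 CPM in cKO Spc. In the RS libraries Spo11 was at 57.5, 58.5 and 54.5 CPM in CTRL and 42.9, 40.5 and 39.2 CPM in cKO. Every RS library lay below every Spc library, and within RS every cKO library lay below every CTRL library. Spo11 fell from Spc to RS by 0.91 on the log2 scale in CTRL (SE 0.10, adjusted p = 0.000219) and by 1.51 in cKO (SE 0.08, adjusted p = 0.000109). The further loss in cKO was 0.71 (SE 0.13, adjusted p = 0.00181), and between genotypes in RS it fell by 0.46 (SE 0.08, adjusted p = 0.000972). The genotypes did not pass the test in Spc, at 0.13 (SE 0.10, adjusted p = 0.365), or in CB, at -0.24 (SE 0.18, adjusted p = 0.323).

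The direction of Spo11 between genotypes in RS depended on the scaling of the libraries. With library size alone the value turned to 0.16 (adjusted p = 0.163) and the difference between the stage changes to -0.0019 (adjusted p = 0.994). That scaling moved the median of all genes in RS from 0.11 to 0.73 and the share of genes called higher from 38.4% to 58.5%, with 18.5% lower. Relative to the median of all genes, Spo11 was at -0.57 in RS under either scaling. All 5 annotated transcripts of Spo11 fell in RS of cKO, beside 36.0% of all transcripts tested, by between 0.37 and 0.42, with its 3 protein-coding forms, its retained intron and its short processed form alike. These forms share reads, and with library size alone only 2 of all member transcripts were called lower in RS, in place of 7.

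Dmc1 (chr15:79561497-79605109, minus strand), the meiosis-specific strand-exchange protein, followed Prdm9. Its level was 5.17, 5.30 and 5.02 CPM in CTRL Spc and 5.06, 6.08 and 5.34 CPM in cKO Spc. Its level in RS was 9.64, 5.45 and 5.63 CPM in CTRL and 13.7, 17.4 and 8.66 CPM in cKO. The Spc libraries were nearly level with each other, and in RS 1 CTRL library, replicate 1, lay above the lowest cKO library. Dmc1 rose in RS of cKO by 0.95 (SE 0.31, adjusted p = 0.0224), and the call was lost without CTRL replicate 2, CTRL replicate 3 or cKO replicate 1 (log2 fold changes of 0.75 to 1.26 over all 6 omissions). Between genotypes the Spc value was -0.02 (SE 0.17, adjusted p = 0.952).

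From Spc to RS, Dmc1 rose by 1.24 in cKO (SE 0.27, adjusted p = 0.00776), and its value in CTRL was 0.29 (SE 0.24, adjusted p = 0.309). The difference between them, 0.85, did not pass the test (SE 0.38, adjusted p = 0.0882), though it passed with DESeq2 (0.91, adjusted p = 0.0475) and with library size alone (1.55, adjusted p = 0.00551). In CB it spanned 4.57 to 6.06 CPM in CTRL and 3.57 to 10.6 CPM in cKO, and the genotypes differed by 0.30 (SE 0.35, adjusted p = 0.531).

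Markers of cells at and before meiotic entry moved with Dmc1 and Prdm9 in RS. Stra8, which drives entry into meiosis, was at 5.85, 2.84 and 3.03 CPM in CTRL RS and 20.5, 14.2 and 9.28 CPM in cKO RS, and it rose by 1.92 (SE 0.37, adjusted p = 0.00179). Ccnb3, a cyclin of early meiotic prophase, was at 4.00, 2.81 and 2.60 CPM in CTRL RS and 9.43, 11.4 and 6.20 CPM in cKO RS, and rose by 1.53 (SE 0.27, adjusted p = 0.00128). CTRL replicate 1, the highest CTRL library for Dmc1 and Prdm9 in RS, was also the highest for these markers. Among cKO RS libraries, Dmc1, Prdm9 and Ccnb3 were highest in replicate 2 but Stra8 in replicate 1, and each was lowest in replicate 3. In cKO CB, the library highest for Stra8, at 60.8 CPM, was not the one highest for Dmc1 and Prdm9. In Spc of cKO, where Dmc1 and Prdm9 kept close to CTRL, Ccnb3 rose by 0.81 (SE 0.21, adjusted p = 0.0313) and Stra8 was at 0.82 (SE 0.29, adjusted p = 0.0707). Both markers together, the 2 of 4 genes on the meiotic entry list that had a row, ranged from 5.63 to 9.85 CPM in CTRL RS and from 15.5 to 29.9 CPM in cKO RS, from 6.31 to 7.06 and 9.16 to 16.1 CPM in Spc, and from 5.65 to 10.3 and 13 to 70.0 CPM in CB.

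Of 8 spermatogonial markers, whose sum in RS was between 43.7 and 52.6 CPM in CTRL and between 70.6 and 108 CPM in cKO, 5 rose and 1 fell, beside 38.4% and 34.3% of all genes, the shares that also stand beside the counts of the lists that follow. Of 11 genes of the synaptonemal complex and meiotic cohesin, listed as spermatocyte markers, 4 rose in RS of cKO (Sycp2, Sycp3, Hormad1 and Tex12) and 5 fell, with a median log2 fold change of 0.06. Sycp2 averaged 201 CPM in CTRL RS and 392 CPM in cKO RS, and Hormad1 34.2 and 68.4 CPM. The sum of the list ran the other way, from 2547 to 2750 CPM in CTRL RS and from 2196 to 2359 CPM in cKO RS, and it was no higher in CTRL Spc (2376 to 2512 CPM), since genes such as Rec8 (245 CPM in CTRL RS and 64.1 CPM in CTRL Spc on average) and Syce2 (238 and 52.8 CPM) were higher in CTRL RS. Among somatic cells, 8 macrophage genes summed to between 30.1 and 43.7 CPM in CTRL RS and between 183 and 295 CPM in cKO RS, 8 Sertoli cell genes to between 58.9 and 71.0 and between 78.2 and 239 CPM, and 6 Leydig cell genes to between 8.96 and 9.74 and between 33.2 and 344 CPM. No marker on these lists was at 0 in every RS library of a group. In CB of CTRL and cKO, the macrophage sum was 12.6 to 20.6 and 15.3 to 82.0 CPM, and the Sertoli sum 25.3 to 35.7 and 25.4 to 76.3 CPM. There the Leydig sum was 15.5 to 61.7 and 43.6 to 441 CPM, and the spermatogonial sum 19.9 to 28.6 and 24.6 to 61.7 CPM. Round spermatid genes summed to 661 to 672 CPM in CTRL CB and 269 to 353 CPM in cKO CB. Of the late spermatocyte list, 5 genes, 4 fell and Pou5f2 rose, from an average of 5.89 CPM in CTRL RS to 17.5 CPM in cKO RS, beside 83.9 CPM in CTRL Spc. The sum of that list was between 6224 and 6594 CPM in CTRL RS and between 3583 and 3954 CPM in cKO RS, and it too was lower in CTRL Spc, from 5257 to 5441 CPM, than in CTRL RS. The counts of markers that rose and fell rest on TMM scaling and can shift with the scaling. The median of all genes in RS was 0.11 with TMM and 0.73 with library size alone. The part of other cells in the levels of Dmc1, Prdm9 and the members below was not tested.

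**Figure D2:**
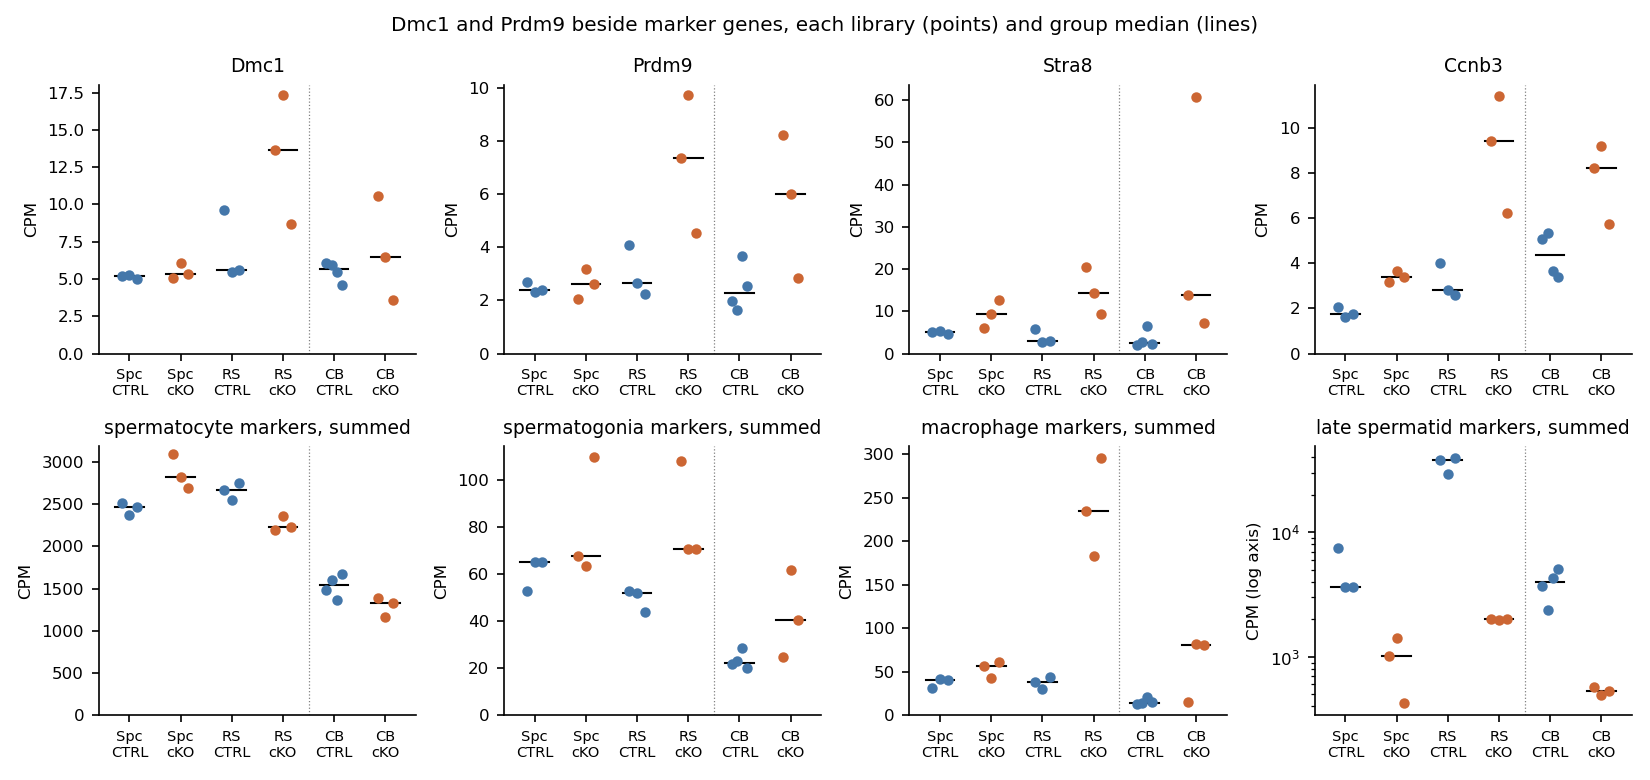
CPM of Dmc1, Prdm9, Stra8 and Ccnb3 and summed CPM of the spermatocyte, spermatogonia, macrophage and late spermatid lists in every library of Spc, RS and CB (blue CTRL, orange cKO), with a line at each group median; the last axis is logarithmic and the others are linear from 0. Stra8 in cKO RS, 9.28 to 20.5 CPM, lay above CTRL RS, 2.84 to 5.85 CPM, while the spermatocyte sum of cKO RS, 2196 to 2359 CPM, lay below that of CTRL RS, 2547 to 2750 CPM, although 4 of its 11 genes rose and 5 fell.

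Msh5 (chr17:35028605-35046745, minus strand) encodes the partner of MSH4 in the clamp that stabilises crossover intermediates, and it rose in every cell type and fraction of cKO. Its level was 16.3, 18.3 and 17.5 CPM in CTRL Spc and 38.1, 36.2 and 37.4 CPM in cKO Spc. The RS libraries held Msh5 at 16.2, 16.8 and 18.2 CPM in CTRL and 34.3, 35.3 and 29.3 CPM in cKO. In CB it was 18.6, 21, 15.8 and 18.6 CPM in CTRL and 33.6, 27.2 and 34.3 CPM in cKO. Within each genotype Spc and RS were close to each other, and in no cell type did the genotypes overlap.

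The rise of Msh5 in cKO was 0.99 in Spc (SE 0.10, adjusted p = 0.00147), 0.96 in RS (SE 0.11, adjusted p = 0.000118) and 0.78 in CB (SE 0.18, adjusted p = 0.00549). It held at 0.98 to 1.03 in Spc, 0.92 to 1.09 in RS and 0.70 to 0.88 in CB when each library was left out in turn, but in CB it did not pass with library size alone (0.64, adjusted p = 0.0953). From Spc to RS, Msh5 was at -0.16 in CTRL (SE 0.10, adjusted p = 0.206) and -0.20 in cKO (SE 0.11, adjusted p = 0.163). The CTRL step passed as lower with library size alone (-0.62, adjusted p = 0.0023) and with summed transcript counts (-0.28, adjusted p = 0.0485). The difference between genotypes in this step was -0.15, with a 95% interval of -0.45 to 0.15 (adjusted p = 0.39), and with library size alone it turned to 0.56 and passed (adjusted p = 0.00854), while relative to the median of all genes it was -0.02 under either scaling. As to marker lists in Spc, 2 of the 11 spermatocyte genes rose and 2 fell, beside 14.0% and 14.1% of all genes (sums of 2376 to 2512 CPM in CTRL and 2692 to 3095 CPM in cKO), and the sums were 121 to 412 and 600 to 1225 CPM for 6 Leydig cell genes, 304 to 805 and 165 to 251 CPM for 8 Sertoli cell genes, and 3650 to 7496 and 428 to 1413 CPM for 9 late spermatid genes. The part of other cells in the level of Msh5 was not tested.

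**Figure D3:**
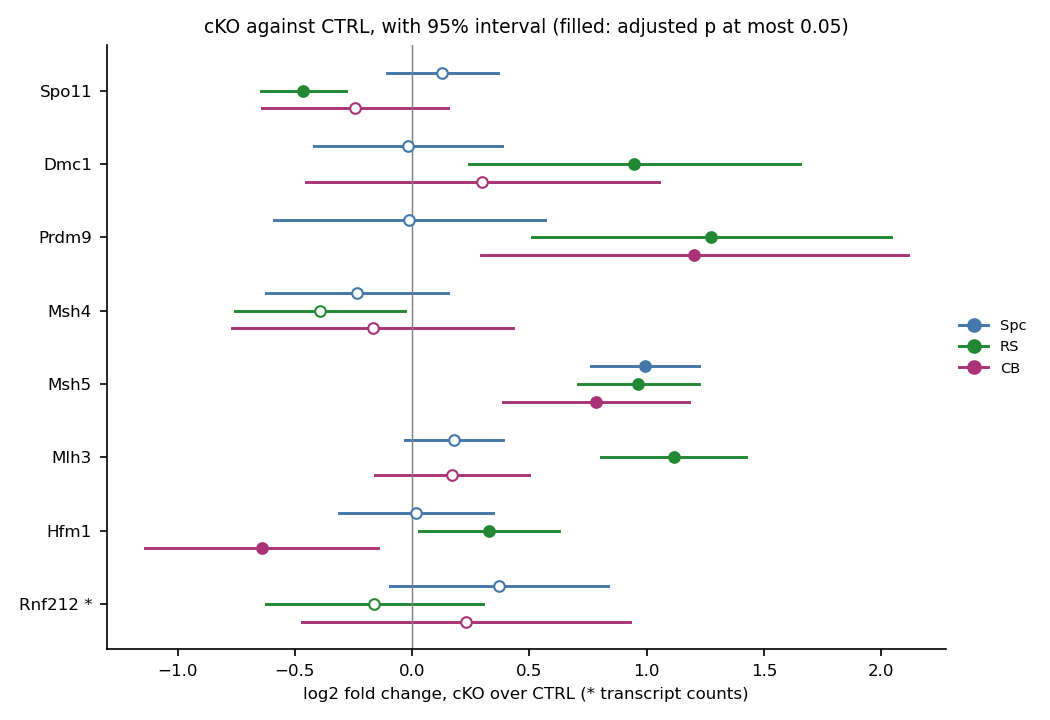
Log2 fold change of cKO against CTRL for each recombination gene in Spc, RS and CB, with 95% intervals from the edgeR fit; filled points pass the test, and Rnf212 is drawn from summed transcript counts. Msh5 stood at 0.99, 0.96 and 0.78, whereas Mlh3 was at 0.18 in Spc, 1.11 in RS and 0.17 in CB.

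Msh5 has 12 transcripts in the GENCODE vM21 annotation, all present in the transcript table, and 5 of them are annotated as NMD targets. The ends of their coding sequences differ, and they are shown because the place of the stop codon is what sets the NMD forms apart from the coding forms. Each line gives the last 27 coding bases in the 5′ to 3′ direction of the RNA, with the stop codon in capitals. The bases come from the spliced GENCODE vM21 transcript sequences, and the gene lies on the minus strand of chromosome 17.
Msh5 coding transcripts ENSMUST00000007250 and ENSMUST00000097338: ctgcccgctgctcccaccatcctcTGA
Msh5 NMD transcript ENSMUST00000172536: cctcggcctctccaccttcatgatTGA
Msh5 NMD transcript ENSMUST00000174603: agatccgggaccaggagaccctgtTGA
Msh5 NMD transcript ENSMUST00000174026: gtgaagtccccaggagtttcatggTGA
Msh5 NMD transcript ENSMUST00000174556: gggatacctgggcattgcttactaTGA
Msh5 NMD transcript ENSMUST00000172491: caagtgccaaacaggatgaggctaTGA
The stop codon of the coding forms (chr17:35028741-35028743) lies in the last exon, 112 nt past the last exon junction. In the NMD forms the last junction comes 441, 880, 1272, 794 and 206 nt after the stop codon, in the order of the lines, and these stops are at chr17:35030619-35030621, chr17:35031526-35031528, chr17:35032712-35032714, chr17:35046001-35046003 and chr17:35045315-35045317.

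Coding and NMD transcripts of Msh5 both rose. Coding transcript ENSMUST00000007250 went from 2.85 ± 0.149 to 6.01 ± 0.110 CPM in Spc (SD, n = 3 each), and the log2 fold change was 1.01 (SE 0.09). NMD transcript ENSMUST00000172536, whose stop codon lies 441 nt before its last junction, went from 2.81 to 5.96 CPM on average, with a log2 fold change of 1.02 (SE 0.09). In RS the same transcripts rose by 1.04 (SE 0.11) and 1.05 (SE 0.11), and in CB by 0.93 (SE 0.18) and 1.00 (SE 0.19). Counting all 12 forms, 11 rose in Spc by 0.60 to 1.15 and 12 in RS by 0.61 to 1.30, and in CB 5 of the 6 that could be tested rose. With library size alone none of the 6 passed in CB, where ENSMUST00000007250 was at 0.51 (adjusted p = 0.422) and ENSMUST00000172536 at 0.58 (adjusted p = 0.352). The form that did not pass in Spc (0.64, SE 0.23, adjusted p = 0.0762) or in CB (0.15, SE 0.24, adjusted p = 0.669) was the NMD transcript ENSMUST00000174556, and the difference between forms was not tested. Among all transcripts tested, 16.1% of 57631 rose in Spc, 38.9% of 57133 in RS and 17.8% of 30623 in CB.

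As a share of the counts of Msh5, the 5 NMD transcripts held 56.3% ± 0.688 in CTRL Spc and 55.3% ± 1.53 in cKO Spc, and 55.1% ± 1.21 and 54.7% ± 1.36 in RS (SD, n = 3 each). The 2 coding transcripts held 30.0% ± 0.628 and 31.1% ± 0.947 in Spc. In CB the coding share was 26.3% to 28.8% in the 4 CTRL libraries and 29.6% to 31.9% in the 3 cKO libraries, without overlap, and the NMD share was 56.5% ± 3.36 and 55.0% ± 1.09, within which ENSMUST00000174556 went from 16.6% ± 2.24 to 10.8% ± 1.35 of the gene. Reads that match several transcripts were divided equally among them by the authors, and most of the exons of Msh5 are shared, so the transcripts are not separate measurements and a shift between forms that share nearly all their sequence could not be resolved.

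Msh4 (chr3:153857149-153906138, minus strand), the partner of MSH5 in the heterodimer, passed the test in none of the 3. It ranged from 14.4 to 18.7 CPM in CTRL Spc and 13.3 to 18.2 CPM in cKO Spc, and from 9.15 to 13.8 CPM in CTRL CB and 6.61 to 13.8 CPM in cKO CB. In RS it was 14.3, 16.2 and 16.7 CPM in CTRL and 12.1, 13.8 and 9.71 CPM in cKO, without overlap. Between genotypes the log2 fold change was -0.24 in Spc (SE 0.17, adjusted p = 0.315), -0.39 in RS (SE 0.16, adjusted p = 0.0503) and -0.17 in CB (SE 0.28, adjusted p = 0.667). The RS value sat on the threshold: it passed with DESeq2 (-0.46, adjusted p = 0.0157), with RLE size factors (-0.46, adjusted p = 0.0294), in a joint fit of 12 libraries (-0.41, adjusted p = 0.0478) and with summed transcript counts (-0.65, adjusted p = 0.00862), and turned to 0.23 (adjusted p = 0.229) with library size alone. From Spc to RS, Msh4 was at -0.20 in CTRL (SE 0.14, adjusted p = 0.221) and -0.37 in cKO (SE 0.19, adjusted p = 0.145). The CTRL value passed with library size alone (-0.65, adjusted p = 0.00414).

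The ratio of Msh5 to Msh4 per kilobase of exon, taken within each library so that scaling plays no part, was 1.35 ± 0.221 in CTRL Spc and 3.17 ± 0.470 in cKO Spc. In RS it was 1.38 ± 0.0622 in CTRL and 3.55 ± 0.293 in cKO, and in CB it was 2.07 ± 0.254 and 4.23 ± 2.10 (SD, n = 3 per group and n = 4 for CTRL CB). No cKO library overlapped with the CTRL libraries of its cell type. The ratio was chosen after its genes had been seen, and an exact permutation test (2-sided) gave p = 0.1 in Spc, p = 0.1 in RS and p = 0.0286 in CB, each the smallest that the group sizes allow. Adjusted over the 9 ratio tests made, those of other ratios included, these exact tests gave 0.3, 0.3 and 0.257.

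Of the Msh4 transcripts, 2 short non-coding forms from the 3′ end of the gene fell in RS of cKO, and the difference between forms was not tested. Transcript ENSMUST00000189189, a retained intron form of 4 exons at chr3:153857269-153865100, averaged 7.96 ± 0.597 CPM in CTRL RS and 2.79 ± 1.14 CPM in cKO RS (SD, n = 3 each) and fell by 1.43 (SE 0.26, adjusted p = 0.00171). Transcript ENSMUST00000191083, a processed form of 5 exons over nearly the same stretch, went from 2.98 ± 0.254 to 1.10 ± 0.284 CPM and fell by 1.36 (SE 0.19, adjusted p = 0.000488). Of the 8 transcripts of Msh4 these were the 2 that passed, and the longest coding form, ENSMUST00000005630, was at -0.12 (adjusted p = 0.479). Among all transcripts tested in RS, 36.0% fell.

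In CTRL the retained intron form stood at 2.55 ± 0.941 CPM in Spc, below its level in RS, and in Spc the genotypes differed by -0.78 (adjusted p = 0.134). The 3 coding transcripts together held 48.7% ± 4.01 of the counts of Msh4 in CTRL Spc and 32.2% ± 1.20 in CTRL RS, and 52.6% ± 2.10 and 45.8% ± 3.71 in the cKO libraries of Spc and RS. The share of coding forms in CTRL RS, at most 33.6% in any library, was thus lower than in all other Spc and RS libraries, in which it was at least 41.6%. In the summed transcript counts Msh4 was at 0.13 from Spc to RS in CTRL (adjusted p = 0.422), against -0.20 in the gene counts. By their labels, the gene and transcript counts rest on different annotations (UCSC and Ensembl) and, in RS, on different trimming runs. A small nucleolar RNA gene, Gm24395, covers 125 bases of the retained exon on the opposite strand, and the transcript counts were made with reverse strand.

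**Figure D4:**
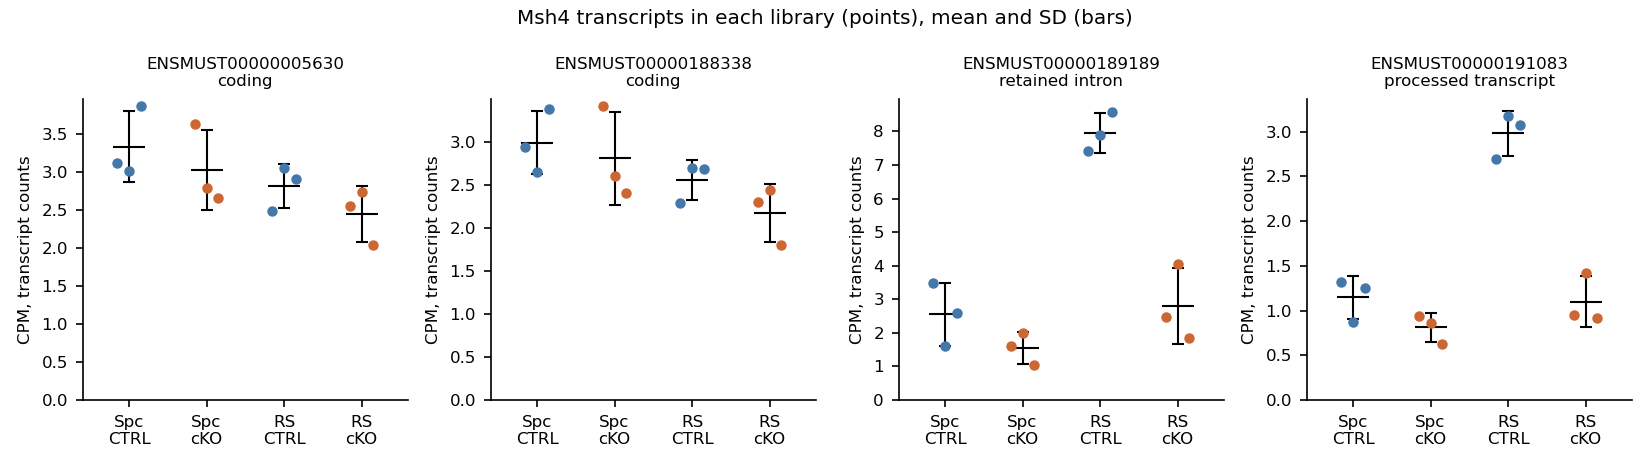
CPM of 4 Msh4 transcripts in every library of Spc and RS, on linear axes from 0, with points for libraries and bars for the mean and SD of each group. The retained intron form ENSMUST00000189189 averaged 7.96 CPM in CTRL RS and 2.79 CPM in cKO RS, while the coding form ENSMUST00000005630 lay between 2.03 and 3.87 CPM throughout.

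Mlh3 (chr12:85234520-85270599, minus strand), the endonuclease subunit that resolves crossovers, fell most steeply of the 7 from Spc to RS in CTRL. Its level was 65.5, 77.3 and 76.2 CPM in CTRL Spc and 96.1, 86.3 and 84.5 CPM in cKO Spc. In RS it was 15.3, 19.4 and 15.4 CPM in CTRL and 40.0, 32.2 and 35.5 CPM in cKO. The genotypes were apart in both cell types, by a narrow gap in Spc and a wide one in RS, and no RS library came near a Spc library. The log2 fold change from Spc to RS was -2.25 in CTRL (SE 0.13, adjusted p = 3.66e-05) and -1.33 in cKO (SE 0.10, adjusted p = 0.000141).

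The step down of Mlh3 was thus smaller in cKO by 0.82 (SE 0.17, adjusted p = 0.00346), and that call was lost without the libraries of replicate 3 (values of 0.74 to 0.94 over the 3 omissions). Between genotypes, Mlh3 rose in RS by 1.11 (SE 0.13, adjusted p = 0.00015) and did not pass in Spc, at 0.18 (SE 0.09, adjusted p = 0.172). In CB it was 66.1, 69.5, 65.2 and 74.4 CPM in CTRL and 82.8, 79.2 and 70.5 CPM in cKO, and the genotypes differed by 0.17 (SE 0.15, adjusted p = 0.409). Its 2 transcripts in the table had the same mean CPM in RS (8.36 in CTRL and 18.0 in cKO), so they are 1 measurement. It rose by 1.19, beside 38.9% of all transcripts tested.

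**Figure D5:**
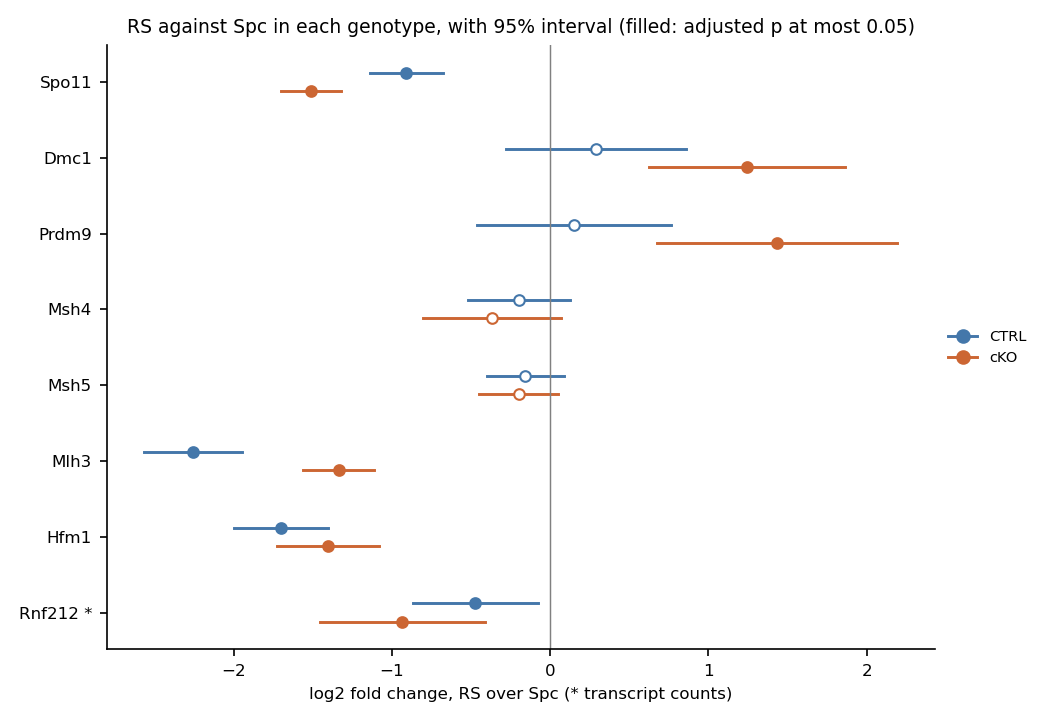
Log2 fold change from Spc to RS for each recombination gene in CTRL and in cKO, with 95% intervals from the edgeR fit; filled points pass the test, and Rnf212 is drawn from summed transcript counts. Mlh3 moved from -2.25 in CTRL to -1.33 in cKO and Spo11 from -0.91 to -1.51, while Dmc1 and Prdm9 were at 1.24 and 1.43 in cKO.

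Hfm1 (chr5:106840192-106926321, minus strand), the helicase that extends joint molecules, also fell from Spc to RS in both genotypes. It ranged from 77.7 to 91.4 CPM in CTRL Spc and from 75.0 to 111 CPM in cKO Spc. In RS it was 24.6, 26.7 and 32.8 CPM in CTRL and 38.0, 34.5 and 32.1 CPM in cKO, where the lowest cKO library lay below the highest CTRL library. The fall was -1.70 in CTRL (SE 0.13, adjusted p = 7.43e-05) and -1.40 in cKO (SE 0.14, adjusted p = 0.000352), and the difference of 0.19 had a 95% interval of -0.27 to 0.65 (adjusted p = 0.486), but passed at 0.91 with library size alone (adjusted p = 0.00234). Between genotypes Hfm1 was at 0.02 in Spc (SE 0.14, adjusted p = 0.942). In RS it rose by 0.33 (SE 0.13, adjusted p = 0.0475), a call that was lost without CTRL replicate 1, CTRL replicate 2 or cKO replicate 1. The call was also lost with DESeq2 (0.26, adjusted p = 0.0981), RLE factors (adjusted p = 0.0963), a joint fit (0.0782) and a replicate block (0.0879).

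In CB, Hfm1 was at 31.5, 39.3, 32.7 and 39.8 CPM in CTRL and at 32.0, 15.7 and 20.5 CPM in cKO, so that a single cKO library reached the CTRL range. It fell by 0.64 (SE 0.23, adjusted p = 0.0437), and the call was lost when any of 6 of the 7 CB libraries was left out (values of -1.01 to -0.46). Hfm1 has 7 annotated transcripts, and the coding ends of 4 of them are shown for comparison with those of Msh5. Again these are 27 bases of the spliced transcript sequences, with the stop codon in capitals.
Hfm1 coding transcripts ENSMUST00000112690 and ENSMUST00000117588: ctgggaatatttaatggcattttcTAA
Hfm1 NMD transcript ENSMUST00000148495: agaccccaggtttttcatctggatTGA
Hfm1 NMD transcript ENSMUST00000148686: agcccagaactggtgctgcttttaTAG
The stop codon of the coding forms (chr5:106840659-106840661) lies 70 nt past the last junction, and those of the NMD forms (chr5:106889932-106889934 and chr5:106920974-106920976) lie 1926 and 755 nt before it.

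In RS of cKO, 4 of the 7 Hfm1 transcripts rose, beside 38.9% of all transcripts tested. NMD transcript ENSMUST00000148495 rose by 0.65 (SE 0.12, adjusted p = 0.0023) and the coding transcripts ENSMUST00000112690 and ENSMUST00000117588 by 0.39 and 0.38 (SE 0.12 each). The coding form ENSMUST00000155171, which covers much of the same 3′ stretch as the NMD form, rose by 0.77 (SE 0.12), and the other NMD form, ENSMUST00000148686, was at 0.12 (SE 0.16). The 2 NMD forms together held 20.8% ± 0.0841 of the counts of Hfm1 in CTRL RS and 21.7% ± 0.108 in cKO RS, and 22.0% ± 0.0151 and 21.9% ± 0.167 in Spc (SD, n = 3 each). None of the 7 forms passed in Spc, and none of the 4 tested passed in CB.

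Rnf212 (chr5:108729290-108774982, minus strand), whose product selects sites for crossing over, was measured only by the summed counts of its transcripts. It ranged from 6.11 to 7.60 CPM in CTRL Spc and 7.36 to 11.4 CPM in cKO Spc, and from 4.61 to 6.11 CPM in CTRL RS and 3.92 to 5.47 CPM in cKO RS, with overlap between genotypes in both. It fell from Spc to RS by 0.47 in CTRL (SE 0.17, adjusted p = 0.0352) and by 0.93 in cKO (SE 0.22, adjusted p = 0.0136), in the fit of summed transcript counts. Between genotypes it was at 0.37 in Spc (SE 0.20, adjusted p = 0.206), -0.16 in RS (SE 0.20, adjusted p = 0.492) and 0.23 in CB (SE 0.32, adjusted p = 0.612), the difference between the steps was -0.64 (SE 0.28, adjusted p = 0.101), and none of its 4 transcripts passed in Spc or RS, while none could be tested in CB.

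Compared per kilobase of merged exon, the 7 members with gene counts kept a clear order in CTRL Spc: Spo11 (55.5 CPM per kilobase) stood above Hfm1 (15.7), Mlh3 (13.2), Msh5 (5.92), Msh4 (4.43), Dmc1 (2.33) and Prdm9 (0.657), and no neighbours overlapped. In CTRL RS, Spo11 still led at 32.4 CPM per kilobase and Prdm9 was last at 0.80, but Msh5 (5.82) overlapped with Hfm1 (5.27), Msh4 (4.24) with Dmc1 (3.11), and Dmc1 with Mlh3 (3.03). In cKO RS, Spo11 led at 23.3 CPM per kilobase, Msh5 was next at 11.3 without overlap, and Hfm1 (6.56), Mlh3 (6.51) and Dmc1 (5.96) could not be ordered. In CTRL CB the order was Spo11 (24.7), Mlh3 (12.5), Hfm1 (6.75), Msh5 (6.30), Msh4 (3.09), Dmc1 (2.48) and Prdm9 (0.655), where Hfm1 overlapped with Msh5 and Msh4 with Dmc1. In cKO CB, Msh5 (10.8) stood above Hfm1 (4.28) without overlap. CB levels were scaled on their own and come from total RNA, so they were not tested against those of the cells.

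Of 27 further recombination genes, grouped by step, 24 had a row (Ankrd31, Shoc1 and Rnf212b had none). In RS of cKO 16 rose and 1 fell, beside the 38.4% and 34.3% of all genes, with a median log2 fold change of 0.56, and with library size alone 20 rose and none fell, beside 58.5% and 18.5% of all genes. By step, 4 of 6 genes of break formation and hotspots rose, 6 of 9 of strand invasion and 6 of 9 of crossover formation. The highest were Cdk2, a kinase found at crossover sites (1.46, adjusted p = 9.57e-06), Ccnb1ip1, a ubiquitin ligase needed for crossovers (1.38, adjusted p = 0.00309), and Zcwpw1, a reader of the marks that PRDM9 leaves (1.15, adjusted p = 0.00226). Psmc3ip, a cofactor of DMC1, was the 1 gene that fell (-0.68, adjusted p = 6.60e-05), and it was at -0.059 with library size alone.

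In Spc of cKO 7 of these 24 genes rose and none fell, beside 14.0% and 14.1% of all genes, with a median of 0.29, and the highest were the nuclease gene Mus81 (0.66), Mei1, needed for break formation (0.50), and the helicase gene Blm (0.47). The count was 3 to 5 when any library was left out and 4 with a replicate block, and Mei1 lost its call in 5 of the 6 omissions. In CB of cKO, Zcwpw1 rose (0.56, adjusted p = 0.035) and Iho1, a factor of break formation, fell (-0.97, adjusted p = 0.00182), among 21 genes tested and beside 18.1% and 18.4% of all genes. The call of Zcwpw1 was lost with DESeq2 (adjusted p = 0.0555), without a count filter (0.13), with summed transcript counts (0.0547) and with library size alone (0.314). Iho1 stood at 25.1 to 30.4 CPM in the 4 CTRL CB libraries and 13.2 to 15.9 CPM in the 3 cKO CB libraries, and at 18.0 and 24.6 CPM on average in CTRL and cKO RS.

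From Spc to RS in CTRL, 12 of the 24 genes fell and 4 rose, beside 39.7% and 36.2% of all genes, with a median of -0.47, and with library size alone 15 fell and none rose, beside 53.3% and 25.3% of all genes. Ccnb1ip1 (-3.14), Cdk2 (-2.92) and Spata22, which binds single-stranded DNA with MEIOB (-2.79), fell most. Rec114 of the break machinery (0.99), Tex11 of crossover formation (0.66) and Mus81 (0.42) rose most. In cKO, 11 fell and 3 rose, beside 26.4% and 18.9% of all genes, with a median of -0.32, led by Ccnb1ip1 (-2.15), Mcmdc2, needed for homologous repair in meiosis (-1.91), and Cdk2 (-1.84), and in the other direction by Tex11 (1.11), Mei1 (0.52) and Brme1, a partner of HSF2BP in meiotic repair (0.41).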

How the data were processed

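Per the labels and the study's methods, the Spc and RS libraries were stranded poly(A) RNA and the CB libraries total RNA without rRNA removal. The submitters' notes name cutadapt 2.8, STAR 2.7.1a and featureCounts 2.0.1; the authors deposited TEtranscripts tables of counts per gene and transposable element, made with reverse strand, and tables of expected counts per transcript, which are estimated and were rounded here. Column names show that the RS gene counts come from another trimming run than those of Spc. Gene rows alone set library sizes and TMM factors. Genes with 10 or more counts, or transcripts with 20, in at least 3 libraries were tested with edgeR 4.0.16 (R 4.3.3), quasi-likelihood, 2-sided, with Benjamini-Hochberg adjustment. The difference of stage changes was an interaction over 12 libraries. Merged exon lengths come from curated RefSeq transcripts on GRCm38, and transcript types and coding ends come from GENCODE vM21. The members, pathway and marker lists were chosen with earlier results of these data known; of pathway genes, at most the 3 highest and 3 lowest passing log2 fold changes per comparison are named. Small RNA and piRNA tables were not used here, and values of some partner genes are not reported here. Alternatives were DESeq2 1.42.0, RLE factors, library size alone, no count filter, elements included, summed transcript counts, a joint fit, a replicate block and omission of libraries.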

Additional observations from a re-analysis of the deposited data

Results flagged for a closer look

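The change from Spc to RS differed between genotypes by the interaction test of edgeR for 3 of the 7 members tested, beside 43.1% of all genes, so the count itself is at the background. Spo11 fell further in cKO (difference -0.71, SE 0.13), Prdm9 rose in cKO and did not pass in CTRL (difference 1.17, SE 0.43), and Mlh3 fell less in cKO (difference 0.82, SE 0.17).

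Among the pathway genes named for this test, the difference was 1.07 for Spata22, 0.98 for Cdk2 and 0.90 for Zcwpw1, in the direction of higher RS levels in cKO. It was -1.15 for Rec114, -0.72 for Psmc3ip and -0.67 for Mus81. With library size alone the difference was -0.0019 for Spo11, -0.43 for Rec114, -0.013 for Psmc3ip and 0.038 for Mus81, and none of these passed. The calls of Prdm9 and Rec114 were lost when the libraries of any replicate number were left out. Among the 4 CTRL CB libraries, the only group of 4, none stood far from the others for any of the 8 members.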

How the results depend on the processing

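Library size without TMM had the widest effect. It turned the genotype difference of Spc to 0.017 for Dmc1 and 0.026 for Prdm9, and that of RS to 0.16 for Spo11 and 0.23 for Msh4. It turned the step from Spc to RS in CTRL to -0.17 for Dmc1, -0.30 for Prdm9 and -0.041 for Mus81, and the difference between genotypes in that step to 0.43 for Msh4, 0.56 for Msh5 and 0.038 for Mus81. The Msh4 transcripts ENSMUST00000005630, ENSMUST00000188338, ENSMUST00000190449, ENSMUST00000191504 and ENSMUST00000191606 went to 0.41, 0.38, 0.37, 0.18 and 0.16 in RS, and the Msh5 transcript ENSMUST00000174556 to -0.26 in CB. With it, members called lower were 0 in RS (18.5% of all genes) and 5 from Spc to RS in CTRL (53.3%), and members called higher were 1 in CB (11.3%). For the difference of steps, 44.5% of all genes were higher and 3.00% lower. Beside them, 5 members were higher and 0 lower, and 17 pathway genes higher and 0 lower. Pathway genes called lower in RS were 0 (18.5% of all genes), and those called higher were 0 in CB (11.3%) and 0 from Spc to RS in CTRL (25.3%). Transcripts of the members called were 2 lower in RS and 0 higher in CB. These shifts follow that of the median of all genes in RS, from 0.11 to 0.73, and from -0.13 to 0.58 for the difference of steps; relative to that median Msh5 was at 0.86 in RS under either scaling and Mlh3 at 1.01.

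Members lower in RS were 2 with DESeq2, RLE factors, the joint fit and summed transcript counts, Msh4 being the second, and pathway genes lower in RS were 2 with the first 3 of these. Pathway genes higher in CB were 0 with DESeq2, without a count filter and with summed transcript counts. The joint fit gave 0.090 for Dmc1 and 0.094 for Prdm9 in Spc, summed transcripts gave 0.13 for Msh4 from Spc to RS in CTRL, and a filter of 10 counts gave 1 member transcript lower in CB. The cause of these shifts was not tested.

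Between no pair of groups did all 3 same-numbered pairs of libraries deviate together (correlations of -0.32 to 0.62, with 0.62 and 0.35 for replicates 2 and 3 of cKO Spc and RS), so the number was taken as a name. A replicate block moved the genes called from 8038 to 9641 in the cKO step and from 4879 to 3768 in Spc. With it, pathway genes higher in Spc were 4, and no other count of members or pathway genes moved by over 1.5 times. Hfm1 in RS (0.34, adjusted p = 0.0879) and Mei1 in Spc lost their calls. For CB, no paired analysis was possible because its columns carry no number that matches those of the labels.

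Omitting each library in turn gave, in Spc, -0.085 to 0.074 for Dmc1, -0.17 to 0.17 for Prdm9, -0.11 to 0.15 for Hfm1 and 3 to 5 pathway genes higher. RS had 3 to 5 members higher and 1 to 2 lower. CB had -0.28 to 0.68 for Dmc1, -0.37 to 0.13 for Msh4, 1 to 2 members higher, 0 to 1 lower, and 0 to 1 pathway genes higher and 1 to 2 lower. From Spc to RS in CTRL, Dmc1 was at -0.018 to 0.43 and Prdm9 at -0.13 to 0.34, and 7 to 11 pathway genes fell in cKO. The difference of steps had Msh5 at -0.27 to 0.020, 0 to 1 members and 1 to 4 pathway genes higher. Member transcripts lower were 3 to 7 in RS and 0 to 2 in CB; ENSMUST00000005630, ENSMUST00000188338 and ENSMUST00000190449 were at -0.22 to 0.11, -0.24 to 0.095 and -0.27 to 0.085 in RS, and ENSMUST00000174556 at -0.056 to 0.25 in CB. In CB, Dmc1, Prdm9 and Rnf212 had the lowest levels in CPM of the members. The CB libraries were also the smallest, and the effect of depth was not tested.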

Other observations

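Over the 12 Spc and RS libraries, the gene whose log2(CPM + 1) was most like that of a member, of 14976 genes, was Srsf5 for Spo11 (Pearson r 0.991), Napb for Msh4 (0.879), Iglon5 for Msh5 (0.989), Ckap2 for Mlh3 (0.998) and Prepl for Hfm1 (0.990). Prdm9 and Dmc1 were each the gene most like the other (0.982). The libraries share depth, stage and genotype, so these values are descriptions without a p.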
